A study of Homo sapiens with 6 samples.

Results

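Galectins are small proteins that bind glycans carrying galactose, and this report describes the genes of this family in the multiple myeloma (MM) cell line INA-6. The members were 10 genes, LGALS1, LGALS2, LGALS3, LGALS4, LGALS8, LGALS9, LGALS12, LGALS13, LGALS14 and CLC, of 21921 genes that had a row of their own among the 65529 rows of the array table. They were chosen by gene symbol, and the family was taken up because LGALS14 was already known to be among the strongest rises in these arrays, so that the values of LGALS14 are given as a description and without a test. Each member had exactly 1 row, so that no choice between rows had to be made.

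INA-6 is an established MM line that was cultured with the growth factor interleukin-6. UNC1999, which inhibits EZH2, was given to 3 cultures, and 3 control cultures were given UNC2400, the inactive counterpart of that compound. Both compounds were given at 1 μM for 120 hours, with medium and reagents renewed at 72 hours, to cells seeded at 100000 per mL. Each group had 3 arrays, named biological replicates in the labels, and as it is not said how the cultures were kept apart, all p-values refer to the spread between these arrays. EZH2 is the enzyme by which Polycomb repression writes the mark H3K27me3 on chromatin.

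Galectins share a carbohydrate recognition domain. Prototype galectins, among them galectin-1 (LGALS1) and galectin-2 (LGALS2), carry a single such domain, galectin-3 (LGALS3) joins it to a flexible tail, and the tandem-repeat galectins (LGALS4, LGALS8, LGALS9 and LGALS12) carry a pair of them. They are made in the cytosol, leave the cell by an unconventional route and cross-link glycoproteins at the cell surface, and some of them mark damaged endosomes from the inside of the cell. On chromosome arm 19q a group of primate genes encodes prototype galectins of the placenta, LGALS13 (placental protein 13), LGALS14 and LGALS16, next to CLC, which encodes the Charcot-Leyden crystal protein (galectin-10) of eosinophils.

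The genes of this cluster resemble each other ahead of their starts, and the sequences are shown because LGALS14 differs from its neighbours in the values that follow. The 250 bases before the annotated start were taken from RefSeq (GRCh38.p14), in which 8 of the 10 members were found. LGALS1 and LGALS12 were not among them, and LGALS17A, a pseudogene of the cluster, had no sequence there either. In the stretch of LGALS14 (chr19:39704231-39704480, plus strand), capitals mark the letters TTATCT, which read AGATAA on the opposite strand, a motif of GATA factors, and the letters TTTAAA, an AT-rich hexamer near the start.
LGALS14: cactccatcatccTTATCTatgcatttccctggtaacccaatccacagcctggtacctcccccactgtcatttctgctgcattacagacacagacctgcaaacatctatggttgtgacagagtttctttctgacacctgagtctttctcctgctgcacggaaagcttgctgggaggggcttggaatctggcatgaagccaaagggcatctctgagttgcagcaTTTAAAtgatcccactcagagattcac

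The stretches of LGALS13 (chr19:39602274-39602523, plus strand), CLC (chr19:39738030-39738279, minus strand) and LGALS16 (chr19:39655663-39655912, plus strand) are shown with capitals for the bases that were identical to LGALS14 in a local alignment.
LGALS13: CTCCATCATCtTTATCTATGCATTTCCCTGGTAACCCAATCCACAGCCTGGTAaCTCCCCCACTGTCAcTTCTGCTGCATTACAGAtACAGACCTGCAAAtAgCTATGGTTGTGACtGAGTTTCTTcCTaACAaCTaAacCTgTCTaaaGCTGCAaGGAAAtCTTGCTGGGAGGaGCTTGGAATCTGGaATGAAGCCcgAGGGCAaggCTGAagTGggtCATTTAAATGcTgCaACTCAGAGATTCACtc
LGALS16: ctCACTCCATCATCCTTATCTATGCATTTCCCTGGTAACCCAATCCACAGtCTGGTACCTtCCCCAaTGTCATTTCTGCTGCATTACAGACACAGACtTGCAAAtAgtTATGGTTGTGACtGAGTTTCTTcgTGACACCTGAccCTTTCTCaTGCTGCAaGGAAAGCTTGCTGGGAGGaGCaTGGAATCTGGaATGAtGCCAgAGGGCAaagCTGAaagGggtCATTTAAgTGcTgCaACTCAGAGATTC
CLC: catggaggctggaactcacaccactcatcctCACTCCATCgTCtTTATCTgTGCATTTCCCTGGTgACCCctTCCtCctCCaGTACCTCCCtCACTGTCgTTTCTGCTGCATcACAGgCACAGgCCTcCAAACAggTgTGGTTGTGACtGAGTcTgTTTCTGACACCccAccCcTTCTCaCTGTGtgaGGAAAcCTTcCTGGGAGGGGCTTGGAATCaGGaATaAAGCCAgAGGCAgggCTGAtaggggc

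LGALS13 matched LGALS14 at 86.3% of 248 aligned positions, LGALS16 at 87.1% of 248 and CLC at 80.0% of 215. The best local alignments of the 5 remaining members with a sequence (LGALS2, LGALS3, LGALS4, LGALS8 and LGALS9) spanned only 24 to 57 positions. AGATAA lay on the strand opposite to the gene in all 4 genes of the cluster with a sequence. It started 237 bases before the start of LGALS14, 239 before LGALS13, 235 before LGALS16 and 206 before CLC. On either strand AGATAA occurred in 9.17% of 35116 windows of the same length before annotated starts. TTTAAA, which is its own reverse complement, occurred in 11.3% of the windows. Among the galectin genes with a sequence it occurred only in LGALS14 and LGALS13, 27 and 29 bases before the start. TATAAA (10.7% of windows) was found only in LGALS8, on the opposite strand, and CACGTG (6.34% of windows) in none of these genes. The 2 motifs do not overlap each other in LGALS14, and a match is a description of letters only.

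The windows of the cluster also held few CG dinucleotides. LGALS14, LGALS13 and LGALS16 had 1 each and CLC had 2, against a median of 11 over all windows, and 14.7% of all windows held as few as 1. LGALS8 had 2, LGALS9 1, LGALS2 5 and LGALS4 6, whereas the window of LGALS3 held 32, and 91.8% of all windows held that many or fewer. For a named gene with more than 1 window only the first listed was used, so other starts are not covered.

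LGALS14 was expressed at a higher level on every UNC1999 array than on any UNC2400 array. Its log2 values were 6.09, 5.88 and 5.96 with UNC2400 and 7.52, 7.27 and 8.17 with UNC1999, in the order of replicates 1, 2 and 3. The UNC2400 arrays lay close together, while UNC1999 replicate 3 stood above the other two. The means were 5.97 ± 0.11 with UNC2400 and 7.65 ± 0.46 with UNC1999 (SD, n = 3 each), a log2 difference of 1.68 (SE 0.23) or 3.21-fold. Between equally numbered arrays the log2 difference was 1.44, 1.40 and 2.21. Without UNC1999 replicate 3 the log2 difference was 1.42. It was 1 of 4 genes of 21921 with a log2 difference of at least this size, which is how the family came to be described.

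**Figure D1:**
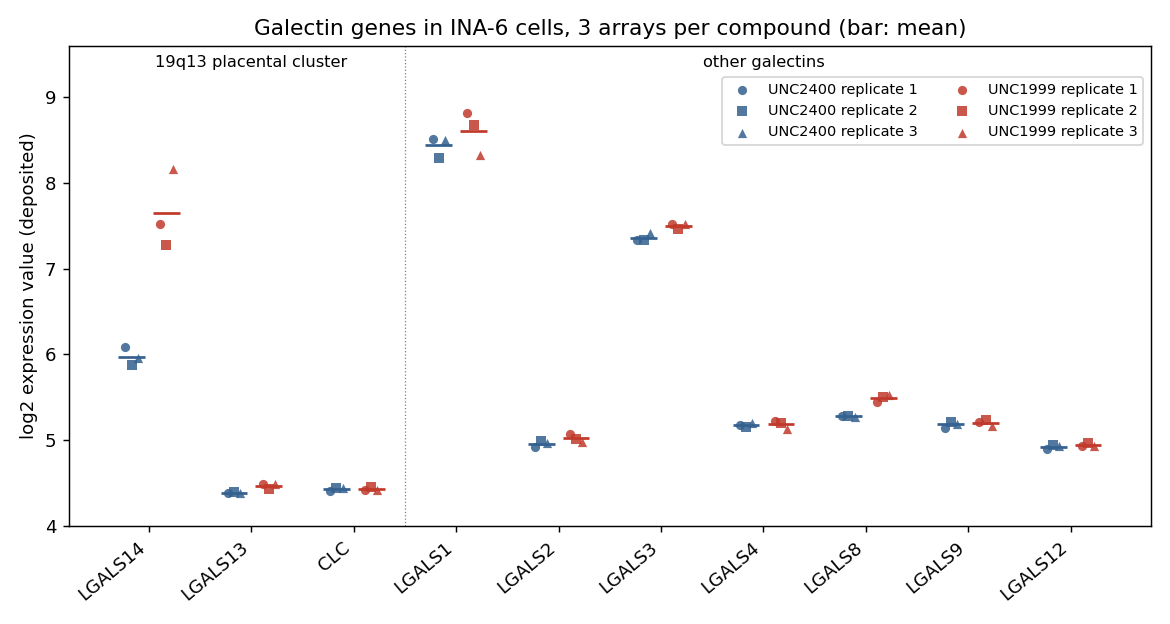
Deposited log2 expression values (vertical axis) of the 10 galectin genes on each of 6 arrays, with UNC2400 in blue, UNC1999 in red, symbols for replicates and a bar for the mean. LGALS14 lies between 5.88 and 6.09 with UNC2400 and between 7.27 and 8.17 with UNC1999, and levels of different genes cannot be set against each other because each has its own probes.

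The other 2 members of the cluster had values near the lower quartile of the arrays, which lay between 4.43 and 4.45 on the 6 arrays, so that expression cannot be told from background there and folds would be compressed. LGALS13 was at 4.38, 4.39 and 4.39 with UNC2400 and at 4.48, 4.44 and 4.49 with UNC1999. Its groups did not overlap, but the log2 difference was 0.08 (95% interval 0.03 to 0.14) and did not pass after adjustment over all rows (limma, adjusted p = 0.0664). CLC was at 4.41, 4.44 and 4.44 with UNC2400 and at 4.42, 4.45 and 4.41 with UNC1999. Its groups overlapped, and the interval of the log2 difference was -0.05 to 0.04 (limma, adjusted p = 0.961). LGALS16, their relative in the cluster and no member of the list, was likewise at 4.42 to 4.46 with UNC2400 and 4.41 to 4.47 with UNC1999 (interval -0.07 to 0.05, limma adjusted p = 0.876).

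Among the galectins outside the cluster, LGALS8 had the clearest difference. It encodes galectin-8, which detects damaged endosomes and hands them to autophagy. Its log2 values were 5.28, 5.28 and 5.27 with UNC2400 and 5.45, 5.51 and 5.53 with UNC1999. The groups did not overlap, and the log2 difference was 0.22 (SE 0.03), a 1.16-fold rise (limma, adjusted p = 0.00675) that passed with any 1 of the 6 arrays left out (adjusted p up to 0.0386).

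LGALS3 encodes galectin-3, which is found in the nucleus, in the cytosol and outside the cell. Its log2 values were 7.34, 7.33 and 7.41 with UNC2400 and 7.53, 7.47 and 7.52 with UNC1999. The groups did not overlap, but the log2 difference was small, 0.14 (SE 0.03) or 1.10-fold (limma, adjusted p = 0.0425). The call was lost in 5 of the 6 cases of 1 array left out, with the exception of UNC2400 replicate 3 (adjusted p from 0.0373 to 0.135).

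LGALS1 encodes galectin-1, a secreted lectin known to cross-link glycoproteins of T cells. Its log2 values were 8.52, 8.30 and 8.50 with UNC2400 and 8.82, 8.68 and 8.33 with UNC1999. UNC1999 replicates 1 and 2 were above all UNC2400 arrays, but UNC1999 replicate 3 was below 2 of them. The log2 difference was 0.17 with an interval from -0.16 to 0.50, wide enough to hold a rise of the size of LGALS8 (limma, adjusted p = 0.577). It depended on single arrays, being 0.31 without UNC1999 replicate 3 (interval 0.09 to 0.53, adjusted p = 0.102 by limma), 0.06 without UNC1999 replicate 1 and 0.10 without UNC2400 replicate 2. On UNC1999 replicate 3 LGALS14 was thus at its highest and LGALS1 at its lowest value within the group.

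The remaining galectins varied by less. LGALS9 encodes galectin-9, a ligand of the T cell receptor TIM-3, and was between 5.15 and 5.21 with UNC2400 and between 5.17 and 5.24 with UNC1999. LGALS4, a galectin of the gut epithelium, was between 5.16 and 5.20 and between 5.13 and 5.23. LGALS2, likewise known from the gut, was between 4.92 and 4.99 and between 4.98 and 5.07, and LGALS12, a galectin of fat cells, between 4.90 and 4.94 and between 4.94 and 4.96. The groups overlapped for all 4 genes, none passed (limma, adjusted p from 0.30 for LGALS2 to 0.89 for LGALS4), and their log2 differences lay between 0.01 and 0.07. LGALS2 and LGALS12 lay only a little above the array medians (4.83 to 4.86), so expression may be hard to tell from background there.

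Of the 9 members other than LGALS14, 2 were thus higher (LGALS8 and LGALS3), none was lower and 7 did not pass, where 9.16% of all genes were called higher and 7.32% lower. Groups were apart, with UNC1999 higher, for 3 of the 9 (24.1% of all genes), and with UNC1999 lower for none (13.7% of all genes). The median log2 difference of the 9 was 0.07, beside 0.01 over all genes. With the cutoffs used by the study (p of 0.02 without adjustment, together with 1.5-fold), none of the 9 reached the fold, the largest being the 1.16-fold of LGALS8, while 2.38% of all genes met both. Over all rows, named or not, 4.99% were called higher and 4.4% lower, groups were apart with UNC1999 higher for 16.7%, and 1.64% met the cutoffs of the study.

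**Figure D2:**
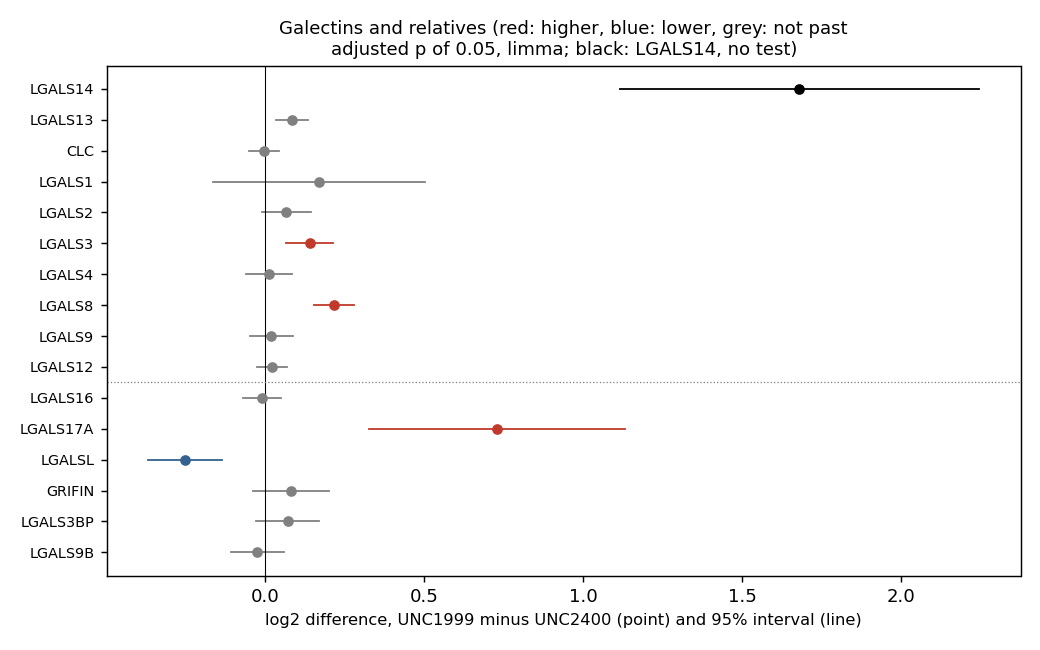
Log2 difference (horizontal axis, UNC1999 minus UNC2400) with its 95% interval from the limma fit for the 10 members, above the dotted line, and for 6 relatives below it. Red marks genes called higher and blue genes called lower; LGALS14, in black, was not tested and lies at 1.68, and LGALS17A at 0.73.

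The galectin relatives outside the list did not move together. LGALS17A, a transcribed pseudogene of the cluster and the measured gene next to LGALS14, was at 5.42, 5.34 and 5.43 with UNC2400 and at 5.97, 5.89 and 6.51 with UNC1999. The groups were apart and UNC1999 replicate 3 was again the highest array. The log2 difference of 0.73 (SE 0.16) or 1.66-fold only just passed (limma, adjusted p = 0.04999), and it passed in 1 of 6 cases of an array left out, without UNC1999 replicate 3 (adjusted p from 0.00456 to 0.137). The call was also lost with quantile normalization (adjusted p = 0.0617) and cyclic loess (adjusted p = 0.0711). LGALS17A is a relative of the galectin genes around it, and whether its row and that of LGALS14 share signal was not tested.

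LGALSL, a galectin-related protein that lacks galactose binding, had a mean of 6.27 ± 0.08 in the control and 6.02 ± 0.04 after UNC1999 (SD, n = 3 each), a 1.19-fold fall (limma, adjusted p = 0.0275) that passed in only 1 of 6 cases of an array left out, without UNC2400 replicate 2 (adjusted p up to 0.0974). Of the 5 listed relatives with a row of their own (LGALSL, LGALS16, LGALS9B, LGALS3BP and GRIFIN) LGALSL was the only one called. Of all genes, 16.5% were called in either direction, so this count does not set the relatives apart. LGALS3BP, the secreted binding protein of galectin-3, was at 5.84 ± 0.06 with UNC2400 and 5.91 ± 0.05 with UNC1999 (limma, adjusted p = 0.407). LGALS7 and LGALS7B share their rows, as do LGALS9B and LGALS9C on 1 of theirs, and these rows did not pass either (limma, adjusted p from 0.341 to 0.568).

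The surroundings of LGALS14 were followed along chromosome 19, to see whether its neighbours changed as well. Among the 15 measured genes on each side, 6 were called higher, none lower and 24 did not pass, where 9.16% of all genes were called higher and 7.32% lower, and the median log2 difference was 0.02. The highest of the 30 log2 differences was that of LGALS17A (0.73), followed by PSMC4, a proteasome subunit (0.33). The lowest was that of ZFP36, which encodes an mRNA decay factor (-0.51, interval -0.88 to -0.13), whose groups were apart but which did not pass (limma, adjusted p = 0.114). On the far side of LGALS14 lay CLC (-0.003), the homeobox gene LEUTX (0.02, limma adjusted p = 0.846), the kinase gene DYRK1B (0.26, limma adjusted p = 0.00885) and FBL, the nucleolar methyltransferase fibrillarin (0.06, limma adjusted p = 0.249). On the near side, LOC100129935 lay between LGALS13 and LGALS16 and was at 0.04 (limma, adjusted p = 0.303). The call of DYRK1B held with any array left out (at most 0.0414), and the other 5 were lost in at least 1 such case. Their number fell to 1 without UNC1999 replicate 1 or UNC1999 replicate 2, to 2 without UNC2400 replicate 1 and to 3 without UNC2400 replicate 3.

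**Figure D3:**
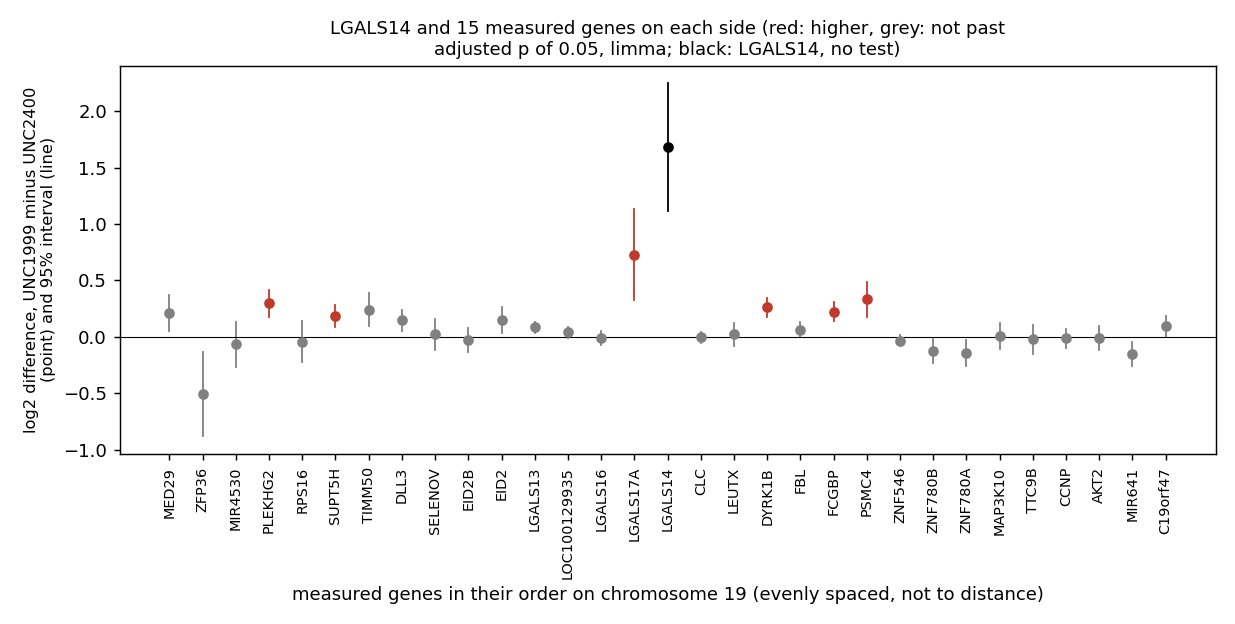
Log2 difference (vertical axis, UNC1999 minus UNC2400, with 95% interval) of LGALS14, in black, and of 15 measured genes on each side in their order along chromosome 19, evenly spaced. LGALS14 (1.68) and the adjoining LGALS17A (0.73) stand above the other genes, while LGALS13, LGALS16 and CLC lie between -0.01 and 0.08.

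The genes whose 6 values ran closest to those of LGALS14 were DOCK10, MYOF, KIT, CD38 and MTARC2. Likeness was taken as the root mean square of the difference in log2 value over the 6 arrays, after each gene had been set to 0 at its UNC2400 mean, and it was 0.10 for DOCK10, 0.18 for MYOF, 0.19 for KIT and 0.25 for CD38 and MTARC2. DOCK10, an exchange factor for small GTPases, was at 4.69, 4.63 and 4.72 with UNC2400 and at 6.08, 6.11 and 6.82 with UNC1999. MYOF, a membrane repair protein, was at 4.71, 4.67 and 4.72 and at 5.99, 5.93 and 6.57. With UNC2400 both genes lay below the array medians (4.83 to 4.86). In all 5 genes, as in LGALS14 and LGALS17A, UNC1999 replicate 3 was the highest array. Since the measure itself looks for equal values on each array, this order is a description and no test was made of it.

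**Figure D4:**
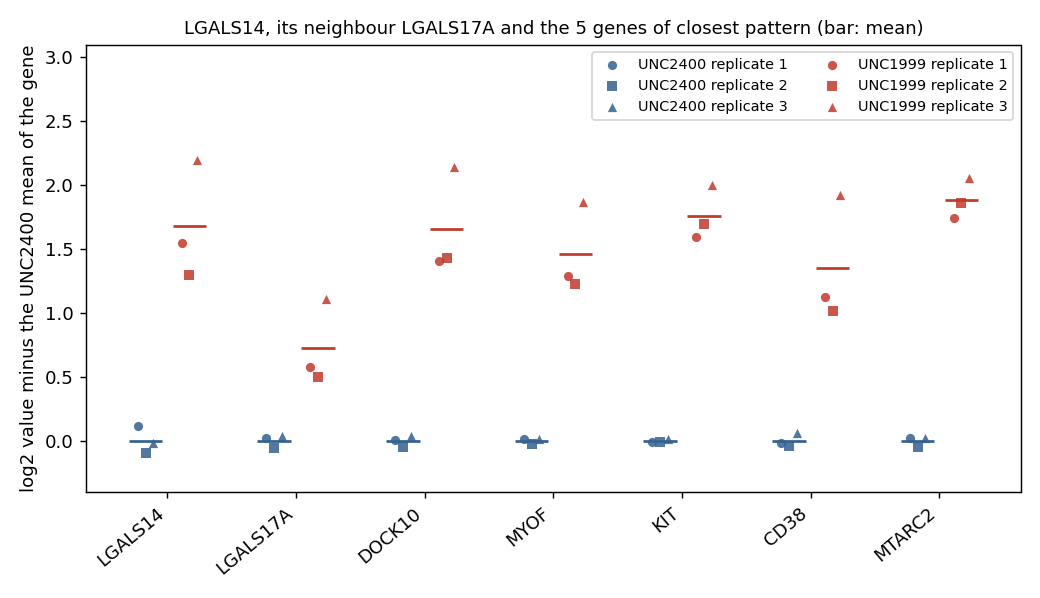
Log2 values minus the UNC2400 mean of each gene (vertical axis) for LGALS14, its neighbour LGALS17A and the 5 genes of closest pattern on 6 arrays, with UNC2400 in blue, UNC1999 in red and a bar for the mean. In each gene UNC1999 replicate 3, the red triangle, is the highest array.

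What a galectin binds depends on the glycans of the cell. Galectins recognise N-acetyllactosamine, which galactosyltransferases such as B4GALT1 build on branches laid down by enzymes such as MGAT5, and sialic acid that ST6GAL1 attaches in the α2,6 linkage is known to block galectin-1. Of 20 branching and extension enzymes, 3 were higher, 1 was lower and 16 did not pass, with a median log2 difference of 0.02, where 16.5% of all genes were called in either direction. B4GALT1 was at 6.43, 6.30 and 6.46 with UNC2400 and at 7.22, 7.17 and 7.37 with UNC1999, a 1.81-fold rise (limma, adjusted p = 0.00202). B4GALT3, a paralogue with the same reaction, was at 7.65, 7.48 and 7.59 with UNC2400 and at 6.83, 6.70 and 6.82 with UNC1999, a 1.73-fold fall (limma, adjusted p = 0.0017). The groups were far apart for both, in opposite directions.

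MGAT5, which adds the branch preferred by galectins, was at 6.50 ± 0.09 with UNC2400 and 6.82 ± 0.11 with UNC1999 (mean ± SD of 3 arrays each), a 1.25-fold rise (limma, adjusted p = 0.0403) that was lost in 6 of 6 cases of an array left out (adjusted p from 0.0507 to 0.0973). B4GALT5, a galactosyltransferase of glycolipid synthesis, was 1.31-fold higher (limma, adjusted p = 0.0252). Its call was lost without UNC1999 replicate 1, 2 or 3 and without UNC2400 replicate 1 (adjusted p up to 0.0781). In each of those 4 cases only B4GALT1 and B4GALT3 were left of the list, and both passed with any array left out (adjusted p up to 0.0123).

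Genes for sialic acid and fucose on these glycans changed in both directions. Of 20 measured, 5 were higher, 6 lower and 9 did not pass, with a median log2 difference of -0.01, where 16.5% of all genes were called in either direction. ST6GAL1 was at 8.02, 7.93 and 7.86 with UNC2400 and at 6.94, 6.82 and 6.95 with UNC1999, a 2.04-fold fall (limma, adjusted p = 0.00104). ST3GAL6, which attaches sialic acid in the α2,3 linkage to N-acetyllactosamine, fell 1.80-fold (6.69 ± 0.06 against 5.84 ± 0.09, limma adjusted p = 0.00157). GNE, the enzyme that starts sialic acid synthesis, fell 1.43-fold (6.77 ± 0.01 against 6.26 ± 0.07, limma adjusted p = 0.00188). ST3GAL1, which acts on O-glycans, rose 1.51-fold, from 5.93 ± 0.05 to 6.52 ± 0.05 (SD, n = 3 each, limma adjusted p = 0.00154). These 4 calls held with any array left out, with adjusted p up to 0.0127. Without UNC1999 replicate 2 or UNC2400 replicate 1 the count of the list fell from 11 to 7.

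**Figure D5:**
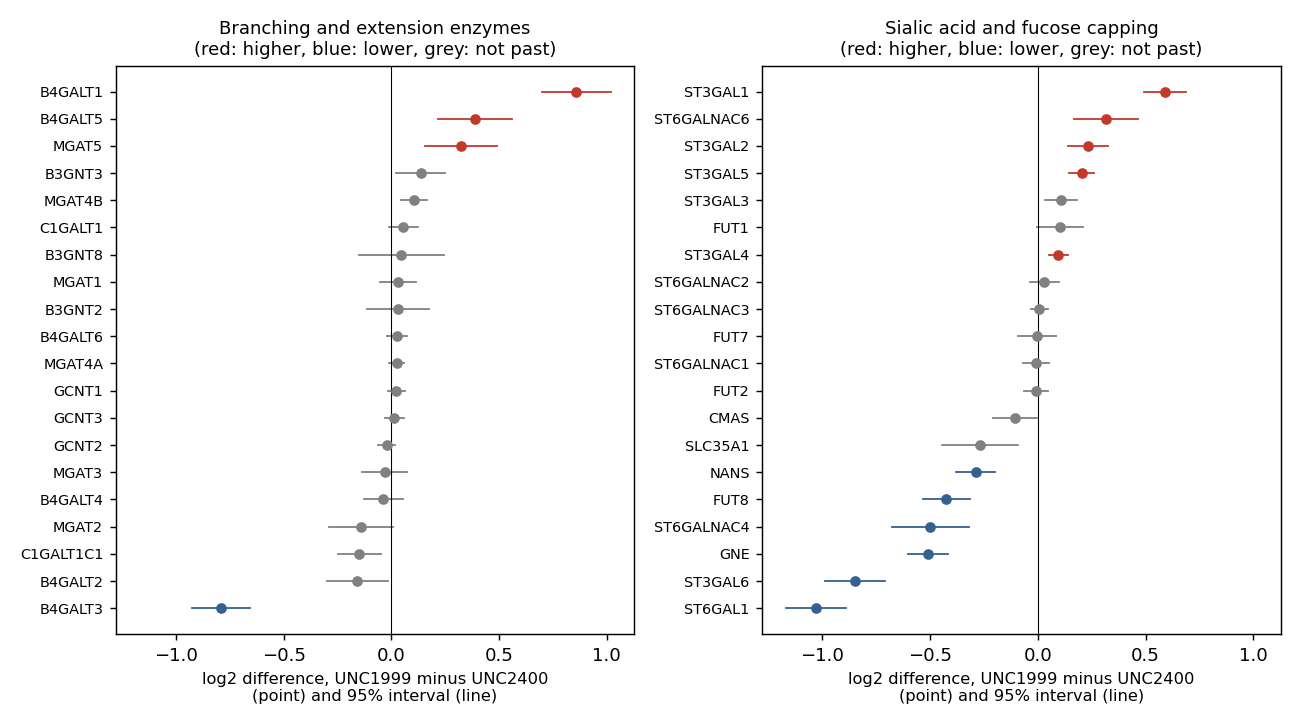
Log2 difference (horizontal axis, UNC1999 minus UNC2400, with 95% interval) of 20 enzymes of glycan branching and extension (left) and 20 genes of sialic acid and fucose capping (right), in order of their difference. B4GALT1 (0.86) and B4GALT3 (-0.79) mark the ends of the left panel, and ST3GAL1 (0.59) and ST6GAL1 (-1.03) those of the right panel.

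Glycoproteins and partners known to bind galectins were higher in 5 of 25 cases, lower in 4 and did not pass in 16 (9.16% and 7.32% of all genes were called higher and lower), with a median log2 difference of 0.02. P4HB, a disulfide isomerase that galectin-9 holds at the surface of T cells, fell 1.31-fold (9.18 ± 0.01 with UNC2400, 8.78 ± 0.06 with UNC1999, limma adjusted p = 0.00276). ITGB1, the integrin β1 chain, had a log2 difference of -0.38 (limma, adjusted p = 0.00397) and CALCOCO2, the autophagy receptor that is recruited by galectin-8, fell 1.28-fold (limma, adjusted p = 0.00459). MUC1, a mucin bound by galectin-3, rose 1.26-fold (5.83 ± 0.04 against 6.17 ± 0.04, limma adjusted p = 0.00306). PTPRC and SPN, which encode CD45 and CD43 and are counter-receptors of galectin-1, were picked out after their values were seen. They were higher by 0.38 and 0.31 on the log2 scale (limma, adjusted p = 0.0184 and 0.0179), and neither call held without UNC1999 replicate 2 (adjusted p = 0.0805 and 0.0762). CD7, CD2 and CD44 of the same list did not pass (log2 differences 0.06, 0.01 and -0.20, limma adjusted p = 0.345, 0.737 and 0.0758). CEACAM1 and LAMP1 were also called higher (0.44 and 0.28, limma adjusted p = 0.00537 and 0.00641).

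Other genes of the placenta were set beside LGALS14. Of 46 trophoblast genes with a row, 2 were higher, 1 was lower and 43 did not pass, where 16.5% of all genes were called, with a median log2 difference of 0.02, and 29 of the 46 lay at or below the array median in both groups. PEG10, an imprinted gene derived from a retrotransposon that is needed for the placenta, was at 7.29, 7.24 and 7.22 with UNC2400 and at 8.27, 8.25 and 8.03 with UNC1999, a 1.91-fold rise (limma, adjusted p = 0.00179). TFAP2A, a transcription factor of trophoblast and neural crest, was at 5.95, 5.95 and 5.86 and at 6.56, 6.59 and 6.59, a 1.58-fold rise (limma, adjusted p = 0.000766). UNC1999 replicate 3, the highest array for LGALS14, was the lowest of its group for PEG10. CAPN6, a placental calpain relative, fell 1.18-fold (limma, adjusted p = 0.0151, and 0.0654 without UNC1999 replicate 2).

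The table as a whole showed 6154 rows past the adjusted p, 9.39% of all, and the array medians lay between 4.83 and 4.86. Of 9 plasma cell markers with a row, 8 were lower with UNC1999 and 1, CD38, was higher (limma, adjusted p = 0.0244), and all were above the array median in at least 1 group. Of all genes, 9.16% were called higher and 7.32% lower, and these shares also stand beside the counts of the other markers below. The call of CD38 was lost without UNC1999 replicate 1 and without any 1 of the 3 UNC2400 arrays (adjusted p up to 0.0861). JCHAIN, the joining chain of secreted antibodies, was between 10.25 and 10.42 with UNC2400 and between 9.51 and 9.63 with UNC1999. Of 11 eosinophil and basophil markers, the cell types that make CLC, 10 did not pass and IL5RA fell 1.47-fold (limma, adjusted p = 0.00482), and their summed log2 values were 53.9 to 54.2 with UNC1999 and 54.4 to 54.6 with UNC2400. Of 9 T cell markers 1 was higher (CD3E) and of 7 monocyte and macrophage markers 1 was higher (CD68, lost without UNC1999 replicate 1 or 2 or UNC2400 replicate 1 or 2, adjusted p up to 0.106). Their summed log2 values were 48.9 to 49.3 and 36.1 to 36.2 with UNC1999, against 48.4 to 48.8 and 35.6 to 35.9 with UNC2400. The median log2 differences were near 0, at 0.02 for T cell, 0.009 for monocyte and macrophage and 0.005 for eosinophil and basophil markers. Single genes made up much of the shifts in the sums (CD3E 0.30, CD68 0.33 and IL5RA -0.55), so the sums do not show whole lists moving. Every array was of cultures of the same myeloma cell line, and the sample labels name no other cell type. The marker values are therefore given as values of the line, and a share of other cells was not tested.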

How the data were processed

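Total RNA of INA-6 cells was hybridised to Affymetrix arrays, 1 array for each of 6 cultures. The log2 expression values were used as deposited by the authors, who analysed the arrays with GeneSpring. How probes were summarised and normalized, and on which genome build, is not given in the sources used here. As control, the labels name UNC2400. The text of the study names DMSO, and the labels were followed. Columns of other samples numbered 0. Rows were named through the platform annotation, with symbols updated by RefSeq, and rows with exactly 1 symbol (23129) stood for genes. Row identifiers have the form of junction or probe region identifiers, and which part of a transcript a row measures was not settled.

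Differences were fitted with limma 3.58.1 (R 4.3.3) on all 65529 rows, from a model of group alone. Tests were two-sided and p-values were adjusted by Benjamini-Hochberg over all rows, at a threshold of 0.05. In simulated arrays with the means and spreads of these rows, 100 rows brighter than the median were changed at each of 2 folds. Of them, 68% were recovered at 1.5-fold and 94% at 2-fold, and 14 of the unchanged rows were also called. This recovery does not cover dim rows such as LGALS13 and CLC. Far more rows (6154) were called in the data, so the cutoff of the adjustment also differed. The number of arrays, 3 per group, limits the precision. Members and gene lists were chosen with earlier results of these data known. Named were all members, up to 4 called genes per list by smallest p, the 4 nearest genes on each side of LGALS14, the 5 most alike genes and for each cell type the marker whose row had the highest mean over the 6 arrays, which is a choice of rows and no ranking of genes by abundance. Some other genes, such as PTPRC and SPN, were named outside this rule. CD247 of the T cell list did not pass (limma, adjusted p = 0.286). Local alignments scored 1 for a match, -1 for a mismatch, -2 for opening and -1 for extending a gap (Biopython). Alternatives were the replicate number as a block, quantile normalization, cyclic loess, dim rows left out, the thresholds of the study and each array left out in turn. No member had a second row to try.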

Additional observations from a re-analysis of the deposited data

How the results depend on the processing

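The log2 difference of LGALS14 stayed between 1.42 and 1.87 with each array left out and moved by less than the SD of its UNC1999 arrays under every alternative run. The count of rows called was 2914 to 6513 with 1 array left out, lowest without UNC1999 replicate 2, and 3559 without UNC1999 replicate 1 and 3674 without UNC2400 replicate 1, against 6154 with all arrays. The cause was not tested. Higher rows were 1486 to 3657 and lower rows 1428 to 2856. At the thresholds of the study there were 1072 rows in the limma fit used here. This is not the count that the study itself reported, which came from GeneSpring with DMSO named as control. Of the members other than LGALS14, LGALS8 passed the adjusted p in every setting run and LGALS3 only in some. With LGALS14, which was chosen for its rise and adds 1 to each count without being a result, the count was 2 to 3, and 1 at the thresholds of the study. With arrays left out, calls were 2 to 4 for branching enzymes, 7 to 12 for capping genes, 6 to 9 for galectin-binding proteins, 2 to 4 for trophoblast genes and 1 to 6 for the neighbours of LGALS14. These settings were added for the lists after seeing the data.

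Equally numbered arrays did not deviate together (correlation of deviations from the group means 0.06, 0.08 and -0.01), so the numbers are not taken as pairs. With the replicate block 4262 rows were called, 2162 of them higher and 2100 lower, and LGALS3, LGALS17A and LGALSL no longer passed (adjusted p = 0.0678, 0.0631 and 0.0756). LGALS3 also missed with cyclic loess (adjusted p = 0.0786) and with dim rows left out (0.05003), a filter that removed LGALS13 and CLC. Signs turned only where values were near 0. LGALS4 was at -0.0002 with quantile normalization and -0.0044 with cyclic loess, and with arrays left out it ran from -0.0079 to 0.0391, CLC from -0.0146 to 0.0032, LGALS16 from -0.0309 to 0.0015 and LEUTX from -0.0213 to 0.0493. FBL passed with quantile normalization (adjusted p = 0.0416). Values near the lower quartile of the arrays carry little signal, which limits LGALS13, LGALS16 and CLC.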
